A study of Homo sapiens with 15 samples.

Results

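The genes described here are 10 genes of the cornified envelope and of squamous differentiation: SPRR1A, SPRR1B, SPRR2A, SPRR2D, SPRR3, IVL, TGM1, A2ML1, PADI1 and PADI2. They were taken by symbol from the 33158 genes of the deposited table, all 10 were found, and they had been chosen on the FPKM values of these same libraries, with the difference between CSCs and non-CSCs in view. Their levels and fold changes are therefore given as a description, with no test. The study sequenced mRNA from 5 groups with 3 libraries each, 15 in all: CSCs and non-CSCs isolated from SUM149PT and from HCC1937, and unsorted SUM159PT, which the study treats as CSCs. The 3 lines are established and come from triple negative breast cancers. CSCs are defined by the surface markers CD44 and CD24 as CD44+ and CD24-/low cells. FPKM, the unit of every level below, is a fragment count divided by transcript length and by library size, so it can be compared between genes.

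The depth of the libraries in reads is unknown. Low FPKM values fell partly on steps shared between libraries. The commonest ratio of low values put the depth of the 12 sorted libraries at 0.856 to 1.08 times that of SUM149PT CSC library 1. This is a rough estimate: the ratio was searched within a limited range, and only 8.0% to 21.6% of the genes compared lay at it. FPKM summed over all genes came to 291276 to 366532 in the sorted libraries and to 634746 to 652082 in SUM159PT. A value of 0 was read only as listed. Whether the 3 libraries of a group came from separate cultures is not given in the sources used here, so p-values measure the spread between these libraries, which may be technical. In bulk RNA, fewer cells that express a gene and less RNA per cell cannot be told apart.

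The cornified envelope is the protein shell that replaces the plasma membrane of keratinocytes at the end of squamous differentiation. Involucrin (IVL) and the small proline-rich proteins (SPRR) are its precursors, and transglutaminase 1 (TGM1) joins them by crosslinks. The peptidylarginine deiminases PADI1 and PADI2 convert arginine in proteins to citrulline, and A2ML1 is a protease inhibitor of the epidermis related to alpha-2-macroglobulin. Breast epithelium is not cornified, although squamous differentiation is known from a class of breast carcinomas.

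IVL and the 5 SPRR genes lie together in the epidermal differentiation complex on chromosome 1, within 149.0 kb of GRCh38.p14 (chr1:152908546-153057512). From the start of IVL, SPRR1A lies at 75.5 kb, SPRR3 at 93.2 kb, SPRR1B at 122.7 kb, SPRR2D at 131.2 kb and SPRR2A at 147.6 kb, with no other protein-coding gene between these 5 SPRR genes. PADI2 (chr1:17066761-17119451) and PADI1 (chr1:17205128-17246007) are neighbours elsewhere on the same chromosome, 85.7 kb apart. A2ML1 lies on chromosome 12 (chr12:8822621-8887459) and TGM1 on chromosome 14 (chr14:24249114-24263177). Adjacent genes of the complex did not have the same levels: in SUM149PT non-CSCs the mean was 1.21 FPKM for SPRR1B and 11.7 for SPRR2D, 6.83 kb away, and SPRR4, 11.5 kb before SPRR1A, was listed at 0 in all 15 libraries.

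**Figure D1:**
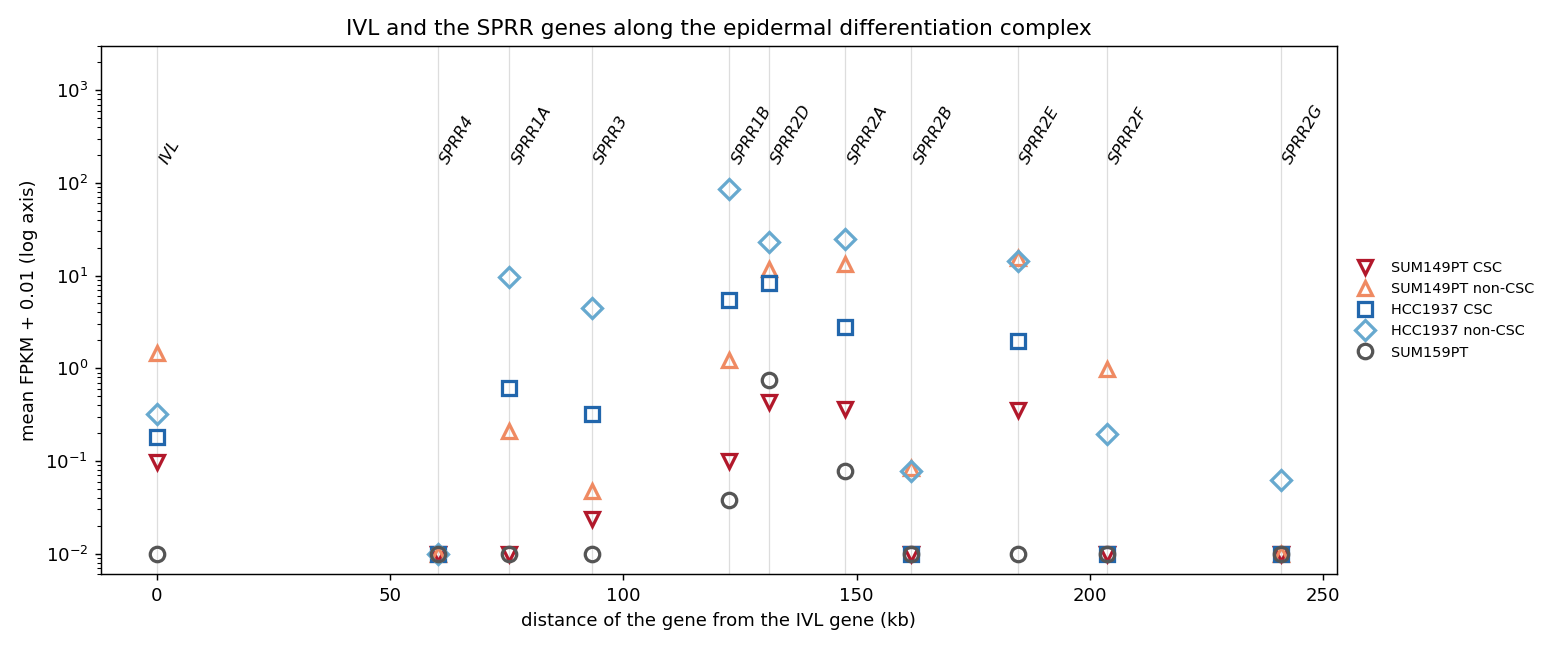
Mean FPKM plus 0.01 (log axis, n = 3 libraries a group) of IVL and the SPRR genes against their distance from the start of IVL in kb; each symbol is a group, and symbols at the bottom are genes listed at 0. The highest symbol is SPRR1B in HCC1937 non-CSCs (mean 85.5 FPKM), and SPRR4 is at 0 in all 5 groups.

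Promoter windows of 300 bases, from 250 before to 50 after the gene start, were taken from RefSeq on GRCh38.p14 and matched 8 of the 10 genes, with 2 windows for A2ML1. SPRR2D and TGM1 had no window. The AP-1 letters TGAGTCA, searched on both strands, were in 5 of the 9 windows, and these were the windows of IVL, SPRR1A, SPRR1B, SPRR2A and SPRR3. Of all 34796 promoter windows of this length, 4.96% held them. The TATA letters TATAAA were also in 5 of the 9 windows, those of IVL, SPRR1A, SPRR2A, SPRR3 and the first window of A2ML1, against 11.6% of all windows. The letters CACCC, a core of KLF motifs, were in 7 of 9, against 59.8%. The 250 bases before the start are shown for the 5 genes of the complex with a window, which have other genes between some of them. The AP-1 letters were at different distances from the start: 108 bases before it in SPRR1A, 123 in IVL, 141 in SPRR1B, 170 in SPRR3 and 197 in SPRR2A. Capitals mark TGAGTCA and TATAAA. A match describes the letters and is not evidence of a bound factor.
IVL, chr1:152908296-152908545, plus strand: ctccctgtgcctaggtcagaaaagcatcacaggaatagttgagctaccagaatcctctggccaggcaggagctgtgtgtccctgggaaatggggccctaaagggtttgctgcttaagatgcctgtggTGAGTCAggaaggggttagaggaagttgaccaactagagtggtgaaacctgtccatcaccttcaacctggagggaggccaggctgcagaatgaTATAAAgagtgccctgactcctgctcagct
SPRR1A, chr1:152983831-152984080, plus strand: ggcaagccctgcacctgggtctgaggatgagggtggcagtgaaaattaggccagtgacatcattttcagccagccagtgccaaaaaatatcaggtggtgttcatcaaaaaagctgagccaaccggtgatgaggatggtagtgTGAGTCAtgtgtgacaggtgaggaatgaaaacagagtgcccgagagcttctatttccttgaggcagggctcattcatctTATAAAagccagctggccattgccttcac
SPRR3, chr1:153001499-153001748, plus strand: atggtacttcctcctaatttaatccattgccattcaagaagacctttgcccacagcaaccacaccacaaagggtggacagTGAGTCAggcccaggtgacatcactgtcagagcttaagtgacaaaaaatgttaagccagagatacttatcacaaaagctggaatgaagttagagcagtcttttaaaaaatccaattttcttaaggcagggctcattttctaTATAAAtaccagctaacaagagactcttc
SPRR1B, chr1:153030953-153031202, plus strand: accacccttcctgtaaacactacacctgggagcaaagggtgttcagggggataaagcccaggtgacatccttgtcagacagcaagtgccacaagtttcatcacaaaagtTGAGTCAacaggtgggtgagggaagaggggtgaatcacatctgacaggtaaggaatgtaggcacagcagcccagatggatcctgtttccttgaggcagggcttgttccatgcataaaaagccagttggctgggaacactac
SPRR2A, chr1:153057513-153057762, minus strand: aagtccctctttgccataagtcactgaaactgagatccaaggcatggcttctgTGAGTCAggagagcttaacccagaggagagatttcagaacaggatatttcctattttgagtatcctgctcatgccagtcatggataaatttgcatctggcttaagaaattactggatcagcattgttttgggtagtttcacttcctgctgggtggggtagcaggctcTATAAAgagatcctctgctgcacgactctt

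SPRR1B had the highest level of the 10 genes, and it was high in HCC1937. It was listed at 89.0, 87.8 and 79.7 FPKM in the 3 HCC1937 non-CSC libraries and at 5.69, 5.95 and 4.48 in the CSC libraries. In SUM149PT it was 1.35, 1.66 and 0.606 FPKM in non-CSCs and 0.0905, 0.0992 and 0.0793 in CSCs, and in SUM159PT 0.0827, 0 and 0. The order was thus HCC1937 non-CSCs, HCC1937 CSCs, SUM149PT non-CSCs, then SUM149PT CSCs and SUM159PT, and only the last pair overlapped. The log2 fold change of CSCs against non-CSCs, on log2(FPKM + 0.1), was -3.98 ± 0.13 (SE) in HCC1937 and -2.68 ± 0.34 in SUM149PT. On this scale the change of genes with low FPKM is understated. The pseudocount weighed on the second value: with 1 in place of 0.1 it was -0.99.

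SPRR1A and SPRR3 were almost confined to HCC1937. SPRR1A, a close relative of SPRR1B, was listed at 11.8, 8.28 and 8.46 FPKM in HCC1937 non-CSCs and at 0.519, 0.762 and 0.504 in CSCs. In SUM149PT non-CSCs it was 0.356, 0.0841 and 0.160 FPKM, and it was listed at 0 in the SUM149PT CSC and SUM159PT libraries. SPRR3, a precursor known from moist squamous epithelia such as the oesophagus, was 5.11, 4.43 and 3.83 FPKM in HCC1937 non-CSCs and 0.0342, 0.519 and 0.387 in CSCs. Its highest value in the 6 SUM149PT libraries was 0.0728 FPKM, and the SUM149PT fractions overlapped. The log2 fold changes in HCC1937 were -3.79 ± 0.20 (SE) for SPRR1A and -3.72 ± 0.59 for SPRR3, the latter -2.07 with a pseudocount of 1. In SUM149PT both genes had a mean under the 0.1 FPKM minimum and were not fitted.

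SPRR2A and SPRR2D were high in the non-CSCs of both lines. SPRR2A was listed at 14.7, 12.6 and 13.2 FPKM in SUM149PT non-CSCs and at 0.279, 0.153 and 0.635 in CSCs. In HCC1937 it was 23.5, 26.9 and 24.6 FPKM in non-CSCs and 3.71, 2.11 and 2.49 in CSCs. Every CSC library lay under every non-CSC library of its line, and SUM149PT CSCs lay under HCC1937 CSCs. SPRR2D was 12.9, 12.4 and 9.88 FPKM in SUM149PT non-CSCs and 0, 0.658 and 0.594 in CSCs, against 22.4, 24.5 and 22.5 in HCC1937 non-CSCs and 7.11, 9.39 and 8.35 in CSCs. The HCC1937 CSCs thus kept a mean of 35.8% of the non-CSC level of SPRR2D, and the SUM149PT CSCs 3.55%. SPRR2D was also the most abundant of the 10 genes in SUM159PT, at 1.03, 0.399 and 0.782 FPKM, where SPRR2A reached 0.135. The log2 fold changes were -5.03 ± 0.38 (SE) for SPRR2A and -4.97 ± 0.81 for SPRR2D in SUM149PT, and -3.17 ± 0.21 and -1.48 ± 0.12 in HCC1937. With a pseudocount of 1 the SUM149PT value of SPRR2D was -3.20. The SPRR2 genes are close copies: 32.7% of the 50-base stretches of SPRR2A transcripts and 19.3% of those of SPRR2D are shared with other genes in GENCODE release 29, SPRR2B and SPRR2E among them. How reads that match several genes were counted is not given in the sources used here, so the split of FPKM among the SPRR2 genes is uncertain. SPRR1A shares 11.3% of its stretches with SPRR1B, while IVL, SPRR3, TGM1 and PADI1 share none.

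Involucrin was the exception in HCC1937. IVL was listed at 1.54, 1.44 and 1.42 FPKM in SUM149PT non-CSCs and at 0.106, 0.0904 and 0.0637 in CSCs. In HCC1937 it was 0.242, 0.318 and 0.374 FPKM in non-CSCs and 0.0402, 0.214 and 0.258 in CSCs, so the fractions overlapped, and it was listed at 0 in SUM159PT. Among non-CSCs, the line with more SPRR1B had less IVL: the mean of HCC1937 non-CSCs was 70.9 times that of SUM149PT non-CSCs for SPRR1B, and the mean of SUM149PT non-CSCs was 4.72 times that of HCC1937 non-CSCs for IVL. In CSCs both means were higher in HCC1937, 59.9 times for SPRR1B and 1.96 times for IVL. The log2 fold change was -3.08 ± 0.10 (SE) in SUM149PT and -0.70 ± 0.38 in HCC1937. The HCC1937 value was -0.28 without CSC library 1 and -0.17 with a pseudocount of 1, which also moved the SUM149PT value to -1.18.

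**Figure D2:**
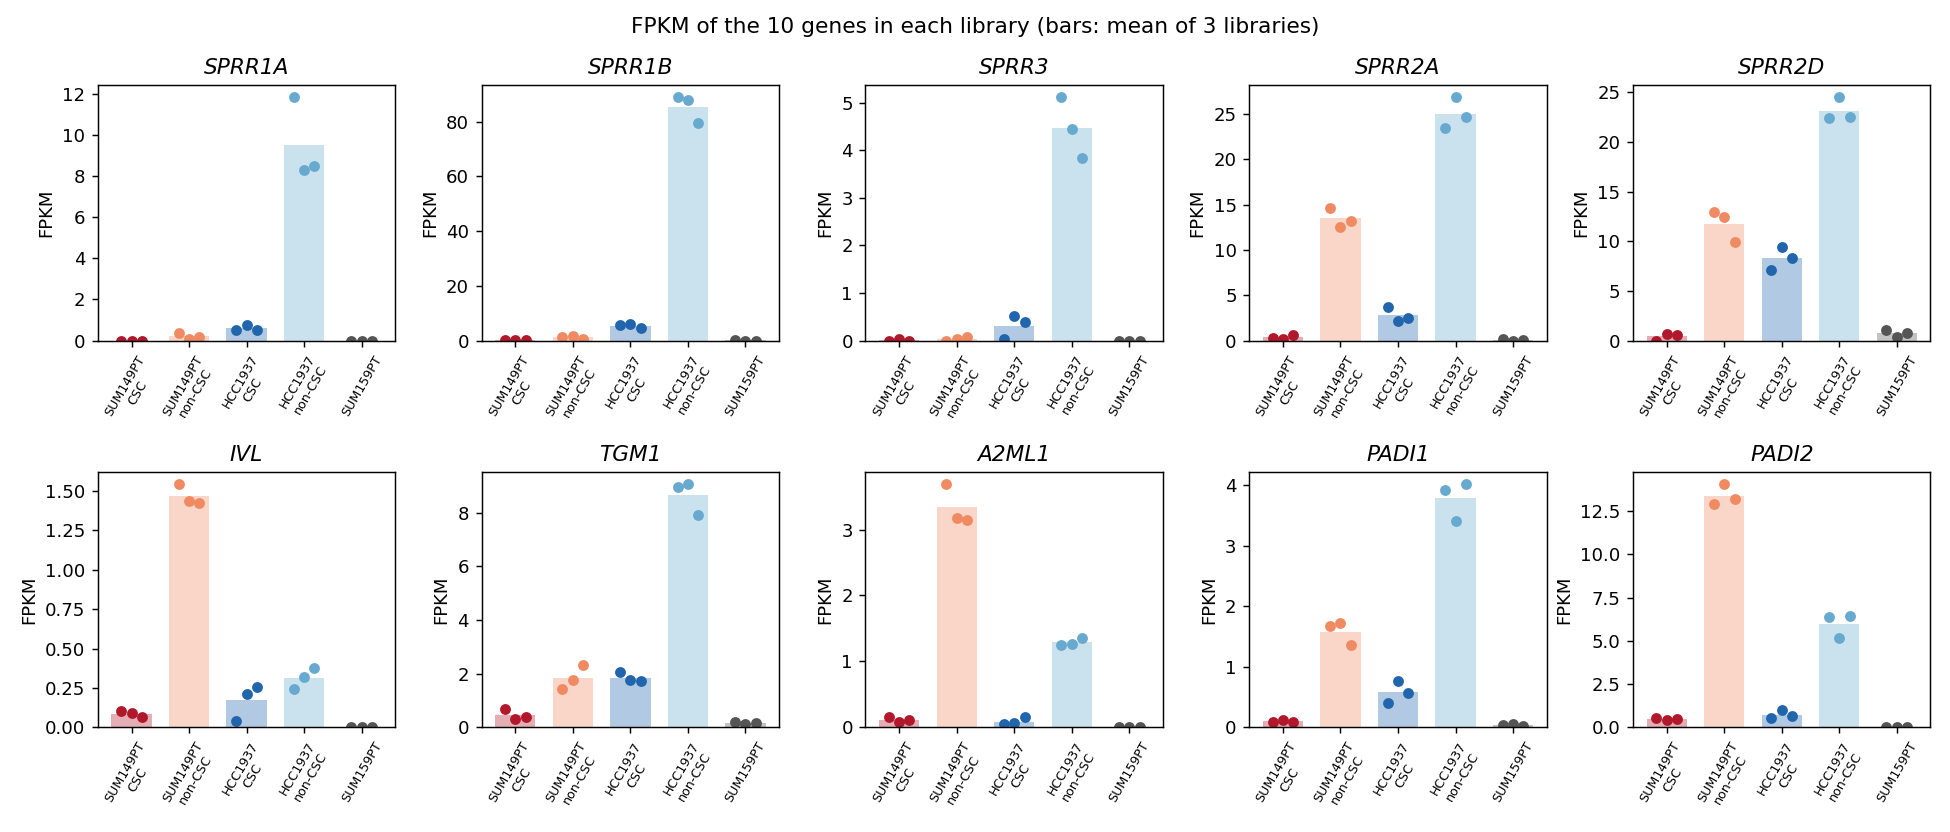
FPKM of the 10 genes (1 panel each, with its own axis from 0) in the 5 groups; points are libraries and bars the mean of 3. SPRR1A, SPRR1B and SPRR3 are high in HCC1937 non-CSCs alone, SPRR2A and SPRR2D in the non-CSCs of both lines, and IVL, A2ML1 and PADI2 are highest in SUM149PT non-CSCs.

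TGM1, which crosslinks the precursors, was listed at 8.98, 9.08 and 7.91 FPKM in HCC1937 non-CSCs and at 2.05, 1.75 and 1.71 in CSCs. In SUM149PT it was 1.44, 1.76 and 2.30 FPKM in non-CSCs and 0.673, 0.318 and 0.393 in CSCs, and in SUM159PT 0.188, 0.123 and 0.161. CSCs lay under non-CSCs without overlap in both lines, whereas HCC1937 CSCs and SUM149PT non-CSCs overlapped. Its log2 fold change, -1.81 ± 0.28 (SE) in SUM149PT and -2.18 ± 0.10 in HCC1937, differed by 0.37 between the lines. With a pseudocount of 1 the values were -0.95 and -1.77.

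A2ML1 was listed at 3.69, 3.18 and 3.14 FPKM in SUM149PT non-CSCs and at 0.155, 0.0799 and 0.104 in CSCs. In HCC1937 the values were 1.26, 1.27 and 1.35 FPKM in non-CSCs and 0.0423, 0.0576 and 0.159 in CSCs. The CSCs of both lines overlapped at a level near 0.1 FPKM, and SUM159PT was listed at 0. The log2 fold change was -4.03 ± 0.15 (SE) in SUM149PT and -2.95 ± 0.23 in HCC1937, and -1.96 and -1.08 with a pseudocount of 1.

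Of the deiminases, PADI2 was highest in SUM149PT and PADI1 in HCC1937. PADI2 was listed at 12.9, 14.1 and 13.2 FPKM in SUM149PT non-CSCs and at 0.538, 0.396 and 0.494 in CSCs. In HCC1937 it was 6.35, 5.18 and 6.42 FPKM in non-CSCs and 0.529, 1.0 and 0.642 in CSCs, and it was listed at 0 in SUM159PT. PADI1, its neighbour on the chromosome, was 1.67, 1.72 and 1.36 FPKM in SUM149PT non-CSCs and 0.0949, 0.124 and 0.0874 in CSCs, against 3.93, 3.42 and 4.02 in HCC1937 non-CSCs and 0.395, 0.772 and 0.572 in CSCs. For both genes the non-CSCs of each line lay above the CSCs of both. The log2 fold changes were -4.56 ± 0.11 (SE) for PADI2 and -3.05 ± 0.12 for PADI1 in SUM149PT, and -2.92 ± 0.22 and -2.55 ± 0.21 in HCC1937. With a pseudocount of 1 the PADI1 values were -1.23 and -1.60.

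**Figure D3:**
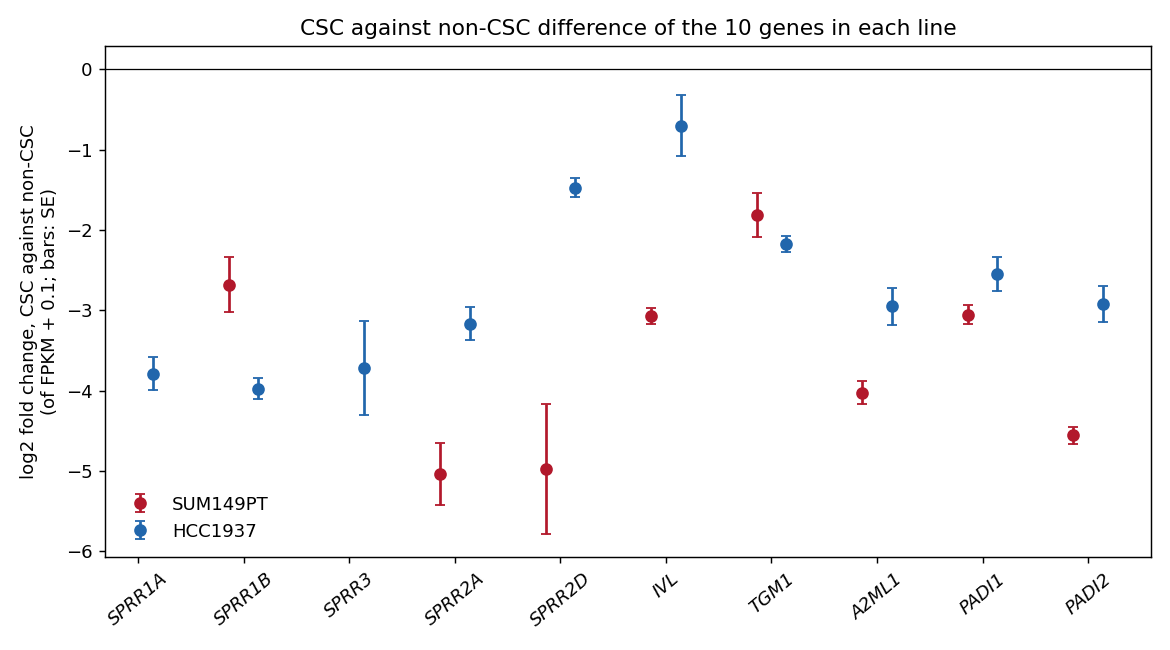
Log2 fold change of CSCs against non-CSCs, on FPKM plus 0.1, of the 10 genes in SUM149PT and HCC1937 (bars: SE of the limma fit, n = 3 libraries a group). All points lie below 0; SPRR1A and SPRR3 have no SUM149PT point because their mean was under 0.1 FPKM, and the HCC1937 fractions of IVL overlapped.

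Summed over the 10 genes, FPKM came to 50.6, 48.9 and 45.3 in SUM149PT non-CSCs and to 1.94, 1.96 and 2.45 in CSCs. In HCC1937 the sums were 172.6, 171.1 and 159.1 in non-CSCs and 20.1, 22.5 and 19.6 in CSCs, and in SUM159PT 1.47, 0.575 and 1.03. The HCC1937 non-CSC sum was 51.0% SPRR1B, while SPRR2A (27.9%), PADI2 (27.8%) and SPRR2D (24.3%) made up most of the SUM149PT non-CSC sum. All libraries were above 1 FPKM for 9 of the 10 genes in HCC1937 non-CSCs, all but IVL, and for 4 in HCC1937 CSCs, SPRR1B, SPRR2A, SPRR2D and TGM1. No gene of the 10 passed 1 FPKM in all libraries of SUM149PT CSCs or of SUM159PT, and 5 were listed at 0 in all 3 SUM159PT libraries.

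Of the 10 genes, 9 had every CSC library under every non-CSC library in SUM149PT (all but SPRR3), and 9 in HCC1937 (all but IVL). Over all genes tested, 43.4% did so in SUM149PT and 24.3% in HCC1937. In the limma fit, 8 of the 10 genes passed the 0.1 FPKM minimum in SUM149PT and 10 in HCC1937. Of the 16037 genes tested in SUM149PT, 22.1% were called lower and 12.8% higher in CSCs, and of the 15582 in HCC1937, 6.0% and 2.71%. Since the 10 genes were chosen on this contrast, the counts of the 10 describe the choice.

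Of the epithelial marker genes, the sum of EPCAM and CDH1 had the same order over the 5 groups as the summed FPKM of the 10 genes. Not every one of the 10 genes had this order. The sum of KRT5 and KRT14 also had it, though neither gene did alone, and the sum of KRT8 and KRT18 did not. The KRT5 mean was 141.3 FPKM in SUM149PT non-CSCs and 32.4 in HCC1937 non-CSCs. The KRT14 mean was 109.1 FPKM in HCC1937 CSCs and 1.28 in SUM149PT non-CSCs. KRT5 and KRT14 together came to 187.1 to 212.1 FPKM in HCC1937 non-CSCs and 113.3 to 131.7 in CSCs. They came to 139.0 to 145.5 in SUM149PT non-CSCs and 6.04 to 7.07 in CSCs, and to 1.39 to 1.65 in SUM159PT. EPCAM and CDH1 together came to 140.7, 134.8 and 125.8 FPKM in SUM149PT non-CSCs and to 5.77, 5.07 and 6.59 in CSCs, to 176.2, 162.6 and 160.3 in HCC1937 non-CSCs and 33.5, 35.7 and 34.6 in CSCs, and to 0.112 to 0.119 in SUM159PT. KRT8 and KRT18 together came to 275.0 to 290.7 FPKM in SUM159PT, above the 74.1 to 81.3 of SUM149PT CSCs, and to 383.8 to 469.0 in HCC1937 CSCs against 395.0 to 412.6 in SUM149PT non-CSCs. VIM, ZEB1 and CDH2 together, of which VIM was the most abundant, came to 225.9 to 288.0 FPKM in SUM149PT non-CSCs and 2037 to 2215 in CSCs, and to 129.2 to 197.5 and 892.8 to 1048 in HCC1937. In SUM159PT this sum was 1065 to 1094, nearly all VIM, while the means of ZEB1 (0.204) and CDH2 (2.87) lay under those of the non-CSCs of SUM149PT (0.776 and 3.31) and HCC1937 (1.63 and 8.08). Of the 16 marker genes, 14 were tested in both lines: CD24, CDH1, EPCAM, ESR1, KRT5, KRT8 and KRT18 were lower and VIM, ZEB1 and CDH2 higher in the CSCs of both. CD44, ERBB2 and KRT14 were called in neither line, and PECAM1 was lower in SUM149PT CSCs only, at a mean of 0.108 FPKM against 0.378. CD24, one of the sorting markers, was at a mean of 5.55% of its non-CSC level in SUM149PT CSCs and 15.6% in HCC1937 CSCs. Among the 10 genes the same share ran from 2.64% (SPRR2A) to 25.1% (TGM1) in SUM149PT, leaving out SPRR1A and SPRR3, and from 6.25% (SPRR1A) to 54.8% (IVL) in HCC1937. The part of the sort and of the epithelial makeup in the levels of the 10 genes was not tested.

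The rest of the pathway was tested with 11 lists of 126 genes, 125 of them in the table. Within a line, limma compared CSCs with non-CSCs on log2(FPKM + 0.1), with Benjamini-Hochberg adjustment over all genes tested. A call needed an adjusted p no higher than 0.05 and a log2 fold change of 1 or more in size. In SUM149PT, 68 of the 125 genes passed the minimum, and 37 were lower, 5 higher and 26 not called in CSCs. In HCC1937, 69 were tested, with 32 lower, 0 higher and 37 not called. By an unadjusted p under 0.05 alone, 57 of these 69 would pass, beside 5886 of all 15582 genes tested in HCC1937. The median log2 fold change was -1.49 in SUM149PT and -1.08 in HCC1937, beside -0.11 and -0.03 over all genes tested. Lower calls made up 54.4% and 46.4% of the pathway genes, beside the 22.1% and 6.0% of all genes given above. The lists were chosen with earlier results of these data known, so these shares and medians describe them and are no independent test. Of the 58 genes tested in both lines, 21 were lower in the CSCs of both and none was called in opposite directions. The same count over all genes tested in both lines is not given here, so nothing is read from these counts. The all-gene split depends on scaling. In SUM149PT, 2045 genes were higher and 3551 lower, but 2790 and 2795 after quantile normalization. In HCC1937, 422 were higher and 935 lower, but 615 and 842 after rescaling to TPM. In SUM149PT the median over all genes was 0.09 after quantile normalization and in HCC1937 0.09 after TPM rescaling. With 3 libraries against 3, an exact two-sided permutation test of a single gene cannot go below 0.1, so single genes rest on the spread that limma shares between genes.

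**Figure D4:**
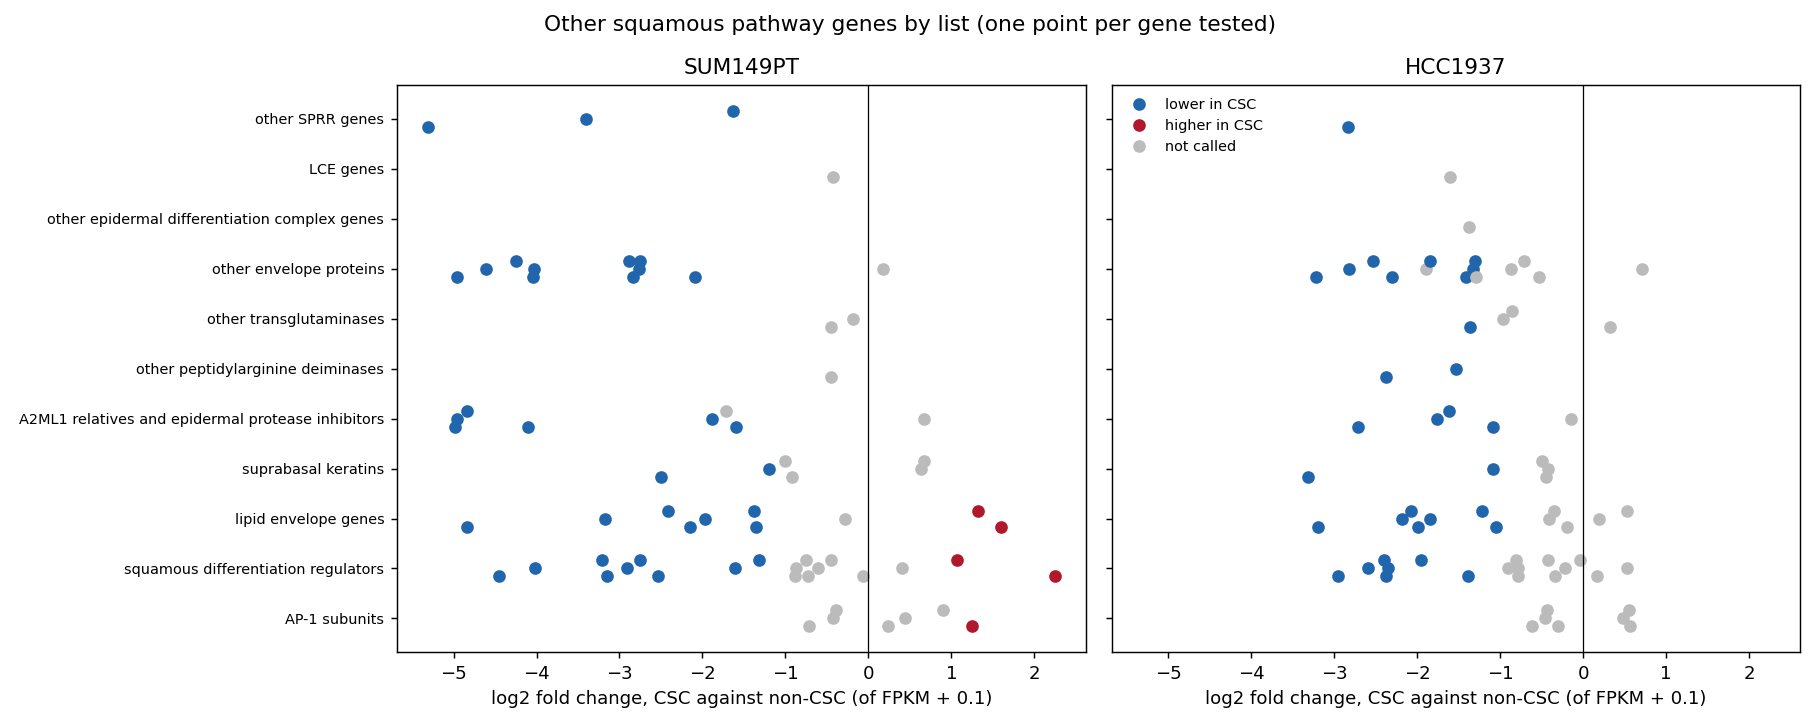
Log2 fold change of CSCs against non-CSCs, on FPKM plus 0.1, of each tested gene of the 11 lists in SUM149PT (left) and HCC1937 (right), with 3 libraries a group; blue points were lower, red higher and grey not called. In SUM149PT 37 points are blue and 5 red, and in HCC1937 32 are blue and 0 red; SPRR2C and SPRR2F, among the blue SUM149PT points of the first row, were listed at 0 in CSCs, so their position depends on the 0.1 added.

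The LCE genes and the 13 other listed genes of the complex were scarce, each under 1 FPKM in all 15 libraries. Of the 18 LCE genes, which are expressed late in cornification, 12 were listed at 0 in all 15 libraries, and the highest value was 0.523 FPKM, of LCE3D in a SUM159PT library. Of 13 other genes of the complex, among them loricrin and filaggrin (FLG), 7 were listed at 0 throughout, FLG included, and the highest value was 0.714 FPKM, of CRCT1. LCE3D in both lines and CRCT1 in HCC1937 were tested, and neither was called. Of the 6 other SPRR genes in the table, 3 were tested in SUM149PT and 1 in HCC1937, and these were called lower in CSCs. SPRR2E was listed at 15.3, 16.2 and 14.7 FPKM in SUM149PT non-CSCs and at 0.503, 0.0791 and 0.456 in CSCs, and its log2 fold change was -5.31 ± 0.48 (SE, adjusted p = 0.000172) in SUM149PT and -2.83 ± 0.21 (adjusted p = 0.000649) in HCC1937. SPRR2F had a mean of 0.966 FPKM in SUM149PT non-CSCs and was listed at 0 in the CSCs of both lines. SPRR2C, also called lower in SUM149PT, was listed at 0 in CSCs and reached 0.371 FPKM in non-CSCs. Both calls ended with a pseudocount of 1.

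The list of other envelope proteins was drawn broadly, and not every product on it is joined to the envelope or lies under it. Of its genes, 10 of 11 tested were lower in SUM149PT CSCs and 8 of 14 in HCC1937. The exception in SUM149PT was ECM1 (0.18, adjusted p = 0.361). In HCC1937 6 were not called, among them SBSN, which was higher in every CSC library (0.71, adjusted p = 0.00379). EVPL and PPL encode envoplakin and periplakin, the scaffold on which the envelope is laid down. EVPL was listed at 5.92, 6.26 and 5.79 FPKM in SUM149PT non-CSCs and 0.227, 0.242 and 0.193 in CSCs, and at 10.5, 11.4 and 11.7 in HCC1937 non-CSCs and 4.34, 4.45 and 4.63 in CSCs. The fall of both plakins was deep in SUM149PT, -4.25 ± 0.08 (SE, adjusted p = 1.55e-06) for EVPL and -4.03 ± 0.06 (adjusted p = 1.4e-06) for PPL on the log2 scale. It was shallower in HCC1937, at -1.30 ± 0.07 (adjusted p = 0.000276) and -1.33 ± 0.06 (adjusted p = 0.000197). PI3, the elastase inhibitor elafin and a transglutaminase substrate, was the most abundant gene of the lists, at 1322, 1146 and 1239 FPKM in SUM149PT non-CSCs and 38.3, 42.5 and 37.9 in CSCs, and at 1844, 1825 and 1640 in HCC1937 non-CSCs and 745.5, 659.7 and 594.8 in CSCs. The cysteine protease inhibitor CSTA fell almost alike in both lines, with log2 fold changes of -2.88 ± 0.12 (SE, adjusted p = 8.96e-06) in SUM149PT and -2.82 ± 0.21 (adjusted p = 0.000602) in HCC1937. DMKN fell by 4.60 ± 0.15 (adjusted p = 4.43e-06) in SUM149PT, and in HCC1937 its log2 fold change of -0.72 was short of the limit.

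Among the relatives of TGM1, TGM2, the tissue transglutaminase, was listed at 137.6, 133.3 and 133.0 FPKM in SUM149PT non-CSCs and 95.3, 99.9 and 101.0 in CSCs, and at 83.6, 89.6 and 94.4 in HCC1937 non-CSCs and 120.3, 110.6 and 105.4 in CSCs. Its log2 fold changes of -0.45 (adjusted p = 0.000592) and 0.33 (adjusted p = 0.0394) were both under the size limit. In SUM149PT only TGM2 and TGM5 were tested and neither was called, and of 4 tested in HCC1937 only TGM5 was called lower (-1.36 ± 0.37, adjusted p = 0.0457). TGM3 (-0.96) and TGM4 (-0.85) also had every HCC1937 CSC library under every non-CSC library and were not called. The TGM5 call was fragile: it ended with a pseudocount of 0.01 (-2.88) or 1 (-0.28), TPM rescaling (-2.01), quantile normalization (-1.28), no expression minimum, eBayes with trend or a replicate block. It also ended without HCC1937 CSC library 1 or 2 or any 1 of the non-CSC libraries (-1.43 to -1.07). PADI3, which lies 3.09 kb from PADI1, was listed at 3.33, 2.06 and 2.57 FPKM in HCC1937 non-CSCs and 0.386, 0.382 and 0.498 in CSCs, a fall of 2.38 ± 0.19 (SE, adjusted p = 0.000775). In SUM149PT, where PADI1 and PADI2 were low in CSCs, PADI3 was 0.923, 0.606 and 0.633 FPKM in non-CSCs and 0.565, 0.484 and 0.440 in CSCs, with a log2 fold change of -0.45 ± 0.17 (adjusted p = 0.0532) that was 0.13 after quantile normalization. PADI4 reached 0.396 FPKM in HCC1937 non-CSCs and was called lower (-1.54 ± 0.30, adjusted p = 0.0159), a call that ended without HCC1937 CSC library 2 or 3 (-1.48 each) and with a pseudocount of 1 (-0.28).

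Among A2ML1 relatives and epidermal protease inhibitors, 6 of 8 tested were lower in SUM149PT CSCs and 4 of 5 in HCC1937. The serpins SERPINB2, SERPINB3 and SERPINB4 carried the largest values. SERPINB3 was listed at 252.7, 222.1 and 211.1 FPKM in SUM149PT non-CSCs and 7.82, 6.53 and 7.05 in CSCs, and at 7.77, 7.10 and 6.10 in HCC1937 non-CSCs and 1.01, 0.967 and 0.946 in CSCs. In non-CSCs it was therefore, like A2ML1, higher in SUM149PT than in HCC1937. The log2 fold changes in SUM149PT were -4.84 ± 0.07 (SE, adjusted p = 1.4e-06) for SERPINB2, -4.98 ± 0.10 (adjusted p = 1.81e-06) for SERPINB3 and -4.95 ± 0.12 (adjusted p = 2.19e-06) for SERPINB4. In HCC1937 they were -1.61, -2.72 and -1.75 (adjusted p = 0.00103, 0.000133 and 0.00134).

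Of 9 suprabasal keratins 5 were under 1 FPKM in all 15 libraries, and 2 of 6 tested in SUM149PT and 2 of 5 in HCC1937 were lower in CSCs. KRT13, a keratin of non-cornified squamous epithelia, was listed at 3.84, 3.97 and 3.48 FPKM in HCC1937 non-CSCs and 0.357, 0.210 and 0.313 in CSCs (log2 fold change -3.31 ± 0.16 SE, adjusted p = 0.000195). Like SPRR3, it was low in SUM149PT, with 0.565 FPKM as its highest value there. KRT4, the other call in HCC1937 (-1.08 ± 0.30, adjusted p = 0.048), ended with either other pseudocount (-1.70 with 0.01, -0.26 with 1), TPM rescaling (-1.36), quantile normalization (-0.97), no expression minimum, eBayes with trend or a replicate block. It also ended without HCC1937 CSC library 1, 2 or 3 or non-CSC library 1 or 2 (-1.27 to -0.81). The SUM149PT calls of KRT9 (-2.49) and KRT78 (-1.20) ended with a pseudocount of 1 (-0.64 and -0.22), and that of KRT78 with quantile normalization (-0.80). KRT10 (0.63) and KRT80 (0.67) had every SUM149PT CSC library above every non-CSC library and were under the size limit. The lipid envelope is the ceramide layer bound to the outside of the protein shell. Its list also holds the proteases CASP14 and ASPRV1, which do not make that layer. Of the genes on this list, 7 of 10 tested were lower in SUM149PT CSCs and 7 of 12 in HCC1937. CASP14, the caspase of cornifying keratinocytes, was listed at 173.2, 178.2 and 158.2 FPKM in SUM149PT non-CSCs and 6.23, 4.97 and 6.37 in CSCs, a log2 fold change of -4.84 ± 0.11 (SE, adjusted p = 2.23e-06). In HCC1937 it was 6.04, 4.64 and 5.94 FPKM in non-CSCs and 0.767, 1.33 and 1.41 in CSCs (-2.18 ± 0.24, adjusted p = 0.00217). The lipid transporter ABCA12 was lower in both lines, -3.18 ± 0.09 (adjusted p = 3.62e-06) in SUM149PT and -2.08 ± 0.17 (adjusted p = 0.000857) in HCC1937, where the call ended with a pseudocount of 1 (-0.70). Against the rest, ABHD5, a coactivator of lipid hydrolysis, rose by 1.32 ± 0.07 (SE, adjusted p = 2.67e-05) in SUM149PT CSCs. NIPAL4 rose by 1.60 ± 0.20 (adjusted p = 0.000726), or 0.67 and not called with a pseudocount of 1.

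Regulators of squamous differentiation, transcription factors and kinases, were divided. In SUM149PT 9 of 19 tested were lower and 2 higher in CSCs, and in HCC1937 7 of 17 were lower and 0 higher. OVOL1, a repressor that favours the epithelial state, was listed at 23.5, 22.9 and 23.9 FPKM in SUM149PT non-CSCs and 0.832, 0.856 and 1.29 in CSCs, and at 9.84, 9.55 and 8.46 in HCC1937 non-CSCs and 1.01, 1.13 and 1.19 in CSCs. Its log2 fold change was -4.45 ± 0.17 (SE, adjusted p = 6.77e-06) in SUM149PT and -2.96 ± 0.10 (adjusted p = 0.000128) in HCC1937. ZNF750, an activator of late epidermal genes, fell by 3.21 ± 0.20 (adjusted p = 3.8e-05) and 2.59 ± 0.28 (adjusted p = 0.00193), and ELF3, an epithelial ETS factor, by 2.54 ± 0.09 (adjusted p = 5.35e-06) and 2.40 ± 0.09 (adjusted p = 0.000128). With a pseudocount of 1 the SUM149PT value of ZNF750 was -1.36. GRHL3 was called in HCC1937 (-2.37 ± 0.11, adjusted p = 0.000195), and in SUM149PT its value of -0.60 was under the size limit. KLF4 was listed at 25.6 to 26.3 FPKM in SUM149PT CSCs and 38.4 to 46.9 in non-CSCs, and at 42.1 to 43.2 and 46.0 to 53.0 in HCC1937. It was called in neither line.

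TP63, the master factor of stratified epithelia, went the other way in SUM149PT. It was listed at 12.1, 10.7 and 11.7 FPKM in SUM149PT CSCs and 2.17, 2.12 and 2.81 in non-CSCs, a log2 fold change of 2.24 ± 0.12 (SE, adjusted p = 2.49e-05). In HCC1937 it was 3.30, 3.34 and 3.01 FPKM in CSCs and 5.94, 5.58 and 5.62 in non-CSCs, where the value of -0.81 ± 0.07 (adjusted p = 0.0011) was under the size limit. PRDM1 rose by 1.06 ± 0.07 (adjusted p = 3.69e-05) in SUM149PT CSCs, or 0.86 and not called with a pseudocount of 1. The AP-1 subunits were mostly not called within a line: of 7 tested, FOSL2 was higher in SUM149PT CSCs (1.25 ± 0.05, adjusted p = 1.17e-05) and none was called in HCC1937. JUNB, for one, was listed at 406.2 to 440.8 FPKM in SUM149PT CSCs and 542.6 to 556.2 in non-CSCs, and at 244.3 to 310.8 and 329.1 to 415.8 in HCC1937. FOSL2 was at 11.66 to 11.89 FPKM in HCC1937 CSCs and 7.43 to 8.62 in non-CSCs. Its HCC1937 value of 0.56 (adjusted p = 0.00473) had the same sign as in SUM149PT and was under the size limit. FOS, FOSB and FOSL1 had opposite signs in the lines, and the difference, SUM149PT minus HCC1937, was called for each: 1.34 (adjusted p = 1.02e-06) for FOS, 1.06 (adjusted p = 6.85e-06) for FOSB and -1.20 (adjusted p = 3.61e-05) for FOSL1.

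**Figure D5:**
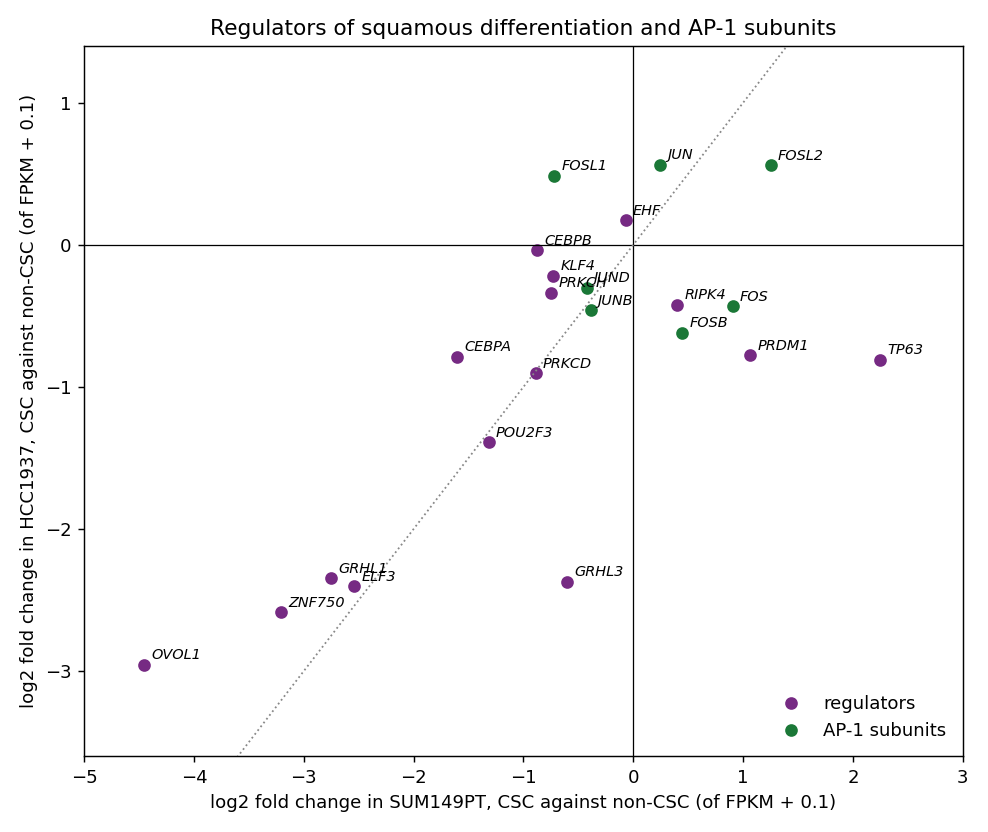
Log2 fold change of CSCs against non-CSCs, on FPKM plus 0.1, in SUM149PT (horizontal) and HCC1937 (vertical) for regulators (purple) and AP-1 subunits (green) tested in both lines, not all of the regulators shown, n = 3 libraries a group; the dotted line marks equal values. OVOL1, ZNF750, ELF3 and GRHL1 are low in both lines, while TP63 (2.24 and -0.81) stands apart.

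Whether the CSC effect differed between the lines was tested as an interaction in limma over the 12 sorted libraries, the SUM149PT effect minus the HCC1937 effect. Of 70 pathway genes tested, 15 had a positive and 21 a negative difference past the limits, and 34 were not called. A gene under the 0.1 FPKM minimum in 1 line can hardly fall there, and among the 58 genes tested in both lines 12 were positive, 17 negative and 29 not called. The calls stand beside 12.2% positive and 18.2% negative among the 16451 genes tested. Over all genes the split was 2014 positive to 2990 negative, and 2517 to 2560 after quantile normalization. EVPL, PI3 and SERPINB2 fell further in SUM149PT, with differences of -2.95 ± 0.10 (SE, adjusted p = 1.7e-08) for EVPL, -3.55 ± 0.14 (adjusted p = 2.88e-08) for PI3 and -3.23 ± 0.16 (adjusted p = 1.36e-07) for SERPINB2. In the other direction, the difference was 3.05 ± 0.14 (adjusted p = 1.05e-07) for TP63, 1.93 ± 0.27 (adjusted p = 0.000153) for PADI3 and 1.77 ± 0.20 (adjusted p = 3.4e-05) for GRHL3, which with a pseudocount of 1 was 0.92 and not called. For CSTA (-0.06 ± 0.25) and ELF3 (-0.14 ± 0.12) the difference was not called. Among the 10 genes themselves, given with no test, the difference was negative for SPRR2D (-3.49), IVL (-2.37), SPRR2A (-1.87), PADI2 (-1.64), A2ML1 (-1.07) and PADI1 (-0.50). It was positive for SPRR1B (1.29) and TGM1 (0.37). The pseudocount moved these values: with 1 the sign turned for PADI1 (0.38), and SPRR1B went to 2.78, SPRR2D to -1.81, IVL to -1.02, SPRR2A to -0.62 and TGM1 to 0.81. With 0.01, SPRR1B went to 0.50, PADI1 to -1.10 and TGM1 to 0.22. Scaling moved some of them too. TPM rescaling gave 0.66 for SPRR1B, -1.01 for PADI1 and 0.17 for TGM1. Quantile normalization gave -0.16 for PADI1 and 0.75 for TGM1. No difference is given for SPRR1A and SPRR3, which were at or near 0 in SUM149PT.

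The protein-coding neighbours of the 10 genes outside the lists were 6. SMCP, before IVL, was listed at 0 in all libraries. RABGGTA, 2.36 kb from TGM1, had log2 fold changes of -0.73 in SUM149PT (adjusted p = 0.00167) and -0.68 in HCC1937 (adjusted p = 0.00279), and SDHB, 12.7 kb from PADI2, -0.74 (adjusted p = 0.0017) and -0.06 (adjusted p = 0.771). Beside A2ML1, RIMKLB was lower in SUM149PT CSCs (-1.66, adjusted p = 2.76e-05) and not called in HCC1937 (0.33, adjusted p = 0.0952), and PHC1 was called in neither line (0.04 and 0.24). TINF2, 6.44 kb from TGM1, had -0.30 and -0.45, both under the size limit.

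Among 12157 genes averaging 1 FPKM or more, those whose pattern over the 15 libraries was most like the median of the 10 genes were MUC16, PIP4K2C, GRAMD2, GATA3, TRAF4, IGSF9, BSPRY, TMEM184A, CCDC64B and TMEM125. Pearson's r on log2(FPKM + 0.1) was 0.993 for MUC16, a membrane mucin, and 0.9845 for TMEM125, the lowest of these. The 15 libraries fall into 5 groups, so r describes group means far more than libraries. GATA3, a luminal transcription factor, had r = 0.988 and means of 2.44 FPKM in SUM149PT CSCs, 9.35 in SUM149PT non-CSCs, 4.8 in HCC1937 CSCs, 15.5 in HCC1937 non-CSCs and 1.58 in SUM159PT. None of these genes was on a list.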

How the data were processed

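The authors deposited FPKM per gene symbol for 15 libraries, with Bowtie2 and GRCh38 named in the submitters' processing notes. The quantification tool and any normalization between libraries are not given in the sources used here. Groups and replicate numbers came from the labels. Values were fitted as log2(FPKM + 0.1) with limma 3.58.1 (lmFit, eBayes) in R 4.3.3, per line and for genes averaging 0.1 FPKM or more, with Benjamini-Hochberg adjustment, and the model was tested on simulated data. The members and the lists were chosen with earlier results of these data known. Named pathway genes were 12 of known role plus, per line, list and direction, up to 3 called genes without overlap by size of change. Genes placed by position were chosen after their values were seen. Gene positions and promoters came from RefSeq (GRCh38.p14) and transcripts from GENCODE release 29. Python 3.11.15, pandas 2.3.3, numpy 2.4.6 and matplotlib 3.10.9 were used. Alternatives were the pseudocount, expression minimum, scaling, eBayes with trend, a replicate block, all 15 libraries, the study's p limit of 0.0001 and leaving out libraries. SPRR5 is not in the table, some listed genes are counted but not reported singly, and only this table was analysed here.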

Additional observations from a re-analysis of the deposited data

Results flagged for a closer look

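Of 29 named pathway genes tested in both lines, 20 had a CSC effect that differed between SUM149PT and HCC1937 by limma's interaction, beside 12.2% positive and 18.2% negative among all genes tested. Most of the named genes were picked for a large change within a line, so nothing is read from their count. The difference, SUM149PT minus HCC1937 on the log2 scale, was negative for 12: DMKN (-3.89), PI3 (-3.55), SERPINB2 (-3.23), SERPINB4 (-3.20), EVPL (-2.95), PPL (-2.70), CASP14 (-2.66), SPRR2E (-2.47), SERPINB3 (-2.27), KRT9 (-2.0), OVOL1 (-1.50) and ABCA12 (-1.10). It was positive for 8: TP63 (3.05), KRT13 (2.31), NIPAL4 (1.95), PADI3 (1.93), PRDM1 (1.84), GRHL3 (1.77), ABHD5 (1.52) and TGM5 (1.18).

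Some of these rested on single libraries. The ABCA12 call ended without HCC1937 non-CSC library 2 (-0.94). The TGM5 call ended without SUM149PT CSC library 1 (1.02) or 2 (1.14), SUM149PT non-CSC library 1 (1.11) or 2 (1.09), HCC1937 CSC library 1 (0.89) or 2 (1.06), or HCC1937 non-CSC library 1 (1.11), 2 (1.25) or 3 (1.19). With a pseudocount of 1 the calls of GRHL3 (0.92), KRT9 (-0.39), NIPAL4 (0.76), TGM5 (0.25) and ABCA12 (-0.41) ended, and with 0.01 those of KRT13 (1.95) and TGM5 (2.51). The ABCA12 call also ended with quantile normalization (-0.95). The TGM5 call also ended with TPM rescaling (1.74), no expression minimum, eBayes with trend and a replicate block.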

How the results depend on the processing

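In SUM149PT 42 pathway genes were called, 26 with a pseudocount of 1 and 25 with a minimum of 1 FPKM, where fewer genes are tested; over all genes 5596 were called, and 3109, 3623 and, at an adjusted p of at most 0.0001, 3292. In HCC1937 32 pathway genes were called, and 0 at an adjusted p of at most 0.0001 by limma, where the smallest adjusted p was 0.000128. An unadjusted p under 0.05 was found for 57 of 69, beside 5886 of all 15582 genes tested. With trend, eBayes called 30 at 0.05. Over all HCC1937 genes 1357 were called, 626 with a pseudocount of 1, 872 with a minimum of 1 FPKM and 0 at the stricter p. Differences between lines numbered 36 and 5004 over all genes, or 2872 with a pseudocount of 1. Without 1 library at a time the counts were 42 to 44, 28 to 32 and 33 to 38.

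Deviations from the group mean correlated weakly between CSC and non-CSC libraries of the same replicate number (0.136, 0.029 and 0.12 in SUM149PT, -0.158, -0.05 and -0.036 in HCC1937). With 3 libraries a group this cannot show whether the libraries were paired. With a replicate block 43, 30 and 35 genes were called.

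Signs reversed for PADI3, TGM5, SCEL, KRT4 and CSTA, at values that were not called with the settings of the report, and the cause was not tested. With quantile normalization SUM149PT PADI3 was 0.13 and TGM5 0.24. With a pseudocount of 1 the difference between lines was 1.35 for SCEL and -0.0854 for KRT4. For SCEL it was called at -2.30 with a pseudocount of 0.01 and at -1.49 with TPM rescaling. Without 1 library at a time, SUM149PT TGM5 ran from -0.343 to 0.0221, and the difference between lines from -0.213 to 0.0915 for CSTA and from -0.149 to 0.394 for KRT4. The fold changes of the 10 genes kept their sign in all settings, while the difference of PADI1 between lines turned from -0.50 to 0.38 with a pseudocount of 1. With a pseudocount of 1 those in SUM149PT ran from -3.43 (SPRR2A) to -0.95 (TGM1), and those in HCC1937 from -3.77 (SPRR1B) to -0.17 (IVL). The depth in reads is unknown, so levels near 0 carry no counting limit.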
